A study of Mus musculus with 17 samples.

Results

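The 9 iron handling genes described here are Fth1, Ftl1, Tfrc, Trf, Slc40a1, Slc11a1, Slc11a2, Hmox1 and Cp. They were chosen for their known roles, with earlier results of these data known, and taken by gene symbol from a table of 18262 genes measured by bulk RNA sequencing in lungs of mice. The question put to them was whether iron genes of the lung differ when a tumor grows elsewhere in the body, and when engineered myeloid cells are given. All 9 were listed, and all 9 passed the minimum of 0.5 FPKM in at least 4 lung libraries that 10284 genes passed.

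Lungs came from C57BL/6 mice, in 4 groups of 4 libraries, and 1 further library came from the injected cells. The group tumor_GEMy carried M3-9-M rhabdomyosarcoma, a mouse muscle tumor line that carries ffluc-mCherry, a luciferase and fluorescence marker, and was injected into the gastrocnemius at 500000 cells. These mice received 8000000 IL12-GEMy cells intravenously on day 12 of tumor growth, and their lungs were taken on day 15. The group tumor_untreated carried the same tumor to day 15 without the cells, naive_GEMy had no tumor and gave lungs 3 days after the same dose of cells, and naive_untreated had neither. IL12-GEMy cells are genetically engineered myeloid cells that secrete interleukin-12. The cell product was grown from bone marrow with lentiviral transduction, SCF, FLT3L and IL-6. The labels do not say whether each library is a separate mouse, so the p-values here speak for the spread among libraries, which may be technical.

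The libraries held 27566836 to 36815061 assigned reads for lungs and 31111336 for the product, as recovered from the values. Pearson correlations of log2 levels over genes between libraries of a group were 0.973 to 0.997. Lung markers summed to 35156 to 56227 RPM (reads per 1000000 assigned reads) in the lungs and 1.48 RPM in the product, and myeloid progenitor markers to 714 to 1556 RPM in the lungs and 5082 RPM in the product. Hemoglobin transcripts, a sign of blood in the tissue, took 0.306 to 2.41% of reads in tumor_GEMy, 0.553 to 5.41% in tumor_untreated, 0.0999 to 0.335% in naive_GEMy and 0.190 to 1.51% in naive_untreated. The number 2 in the sample descriptions marks every tumor_GEMy library and the number 1 every tumor_untreated library, so whatever it stands for cannot be told apart from treatment.

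Iron enters most cells as transferrin-bound iron through the transferrin receptor, is carried out of endosomes or phagosomes by the SLC11 transporters, is stored in ferritin and leaves through ferroportin. Heme oxygenase releases iron from heme, which in the lung is a task of macrophages that clear red cells, and ceruloplasmin oxidises iron so that transferrin can take it up. Cells set the ferritin, transferrin receptor and ferroportin proteins largely through iron regulatory proteins. These bind hairpins called iron-responsive elements in the untranslated regions (UTR) of the mRNA, blocking translation from the 5′ UTR and protecting the message from the 3′ UTR.

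A search of 1 principal transcript per member (GENCODE M21, build mm10) for this hairpin found 7 matches in 4 of the 9 members. The pattern was C, 5 bases, CAGTGN and 5 bases that pair with the first 5, on the transcript strand. Of 21877 protein-coding genes, each searched in all its protein-coding transcripts, 294 (1.34%) held a match. That share counts a match in any transcript, while the member count rests on 1 transcript each. The matches are shown because they mark messages that iron can control after transcription in either of the ways above, which RNA levels show only in part. Capitals mark the loop, each line is a 30-base window written 5′ to 3′, and the 4 elements of Tfrc are numbered along the transcript.
Fth1 5′ UTR: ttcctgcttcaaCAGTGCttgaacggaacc
Ftl1 5′ UTR: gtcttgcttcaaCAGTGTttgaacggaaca
Slc40a1 5′ UTR: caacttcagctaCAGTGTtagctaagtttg
Tfrc 3′ UTR element 1: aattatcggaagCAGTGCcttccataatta
Tfrc 3′ UTR element 2: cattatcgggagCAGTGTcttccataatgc
Tfrc 3′ UTR element 3: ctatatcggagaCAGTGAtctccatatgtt
Tfrc 3′ UTR element 4: aattatcgggaaCAGTGTttcccataattt

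The windows lie at chr19:9982732-9982761 on the plus strand for Fth1, chr7:45459778-45459807 on the minus strand for Ftl1 and chr1:45925464-45925493 on the minus strand for Slc40a1. Those of Tfrc lie at chr16:32631219-32631248, chr16:32631598-32631627, chr16:32631663-32631692 and chr16:32631710-32631739, all on the plus strand. No match was found in the transcripts used for Slc11a1, Slc11a2, Hmox1, Trf and Cp. The pattern allows no unpaired base in the upper stem and 1 transcript was read per member. The search thus cannot tell which members lack an element, and an isoform of Slc11a2 is known to carry one in its 3′ UTR.

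Levels of the members spanned a wide range. On a scale of RPM per kilobase of mRNA, the ferritin heavy chain gene Fth1 had a median of 1818 over the 16 lungs (lowest 1245, highest 2055). The light chain gene Ftl1 followed with a median of 1148 (924 to 1235), and the highest Ftl1 library lay just under the lowest Fth1 library. Transferrin, Trf, had a median of 214 (175 to 269), ceruloplasmin, Cp, 72.7 (57.0 to 97.9), and heme oxygenase 1, Hmox1, 31.7 (28.0 to 76.3). Lower medians were those of Tfrc (12.5 to 23.3), Slc11a2 (10.4 to 14.5), Slc11a1 (5.13 to 29.0) and Slc40a1 (3.14 to 26.0). Ranges overlapped between Cp and Hmox1, between Hmox1 and Slc11a1, and among the lowest 4 genes, while Hmox1 lay above every Tfrc library. The highest lung exceeded the lowest 8.27-fold for Slc40a1, 5.65-fold for Slc11a1 and 2.72-fold for Hmox1, and 1.34- to 1.86-fold for the other 6. The ferritin messages were thus the most abundant of the 9 and among the more even, and Slc40a1 and Slc11a1, which varied the most, were the 2 with the lowest medians.

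**Figure D1:**
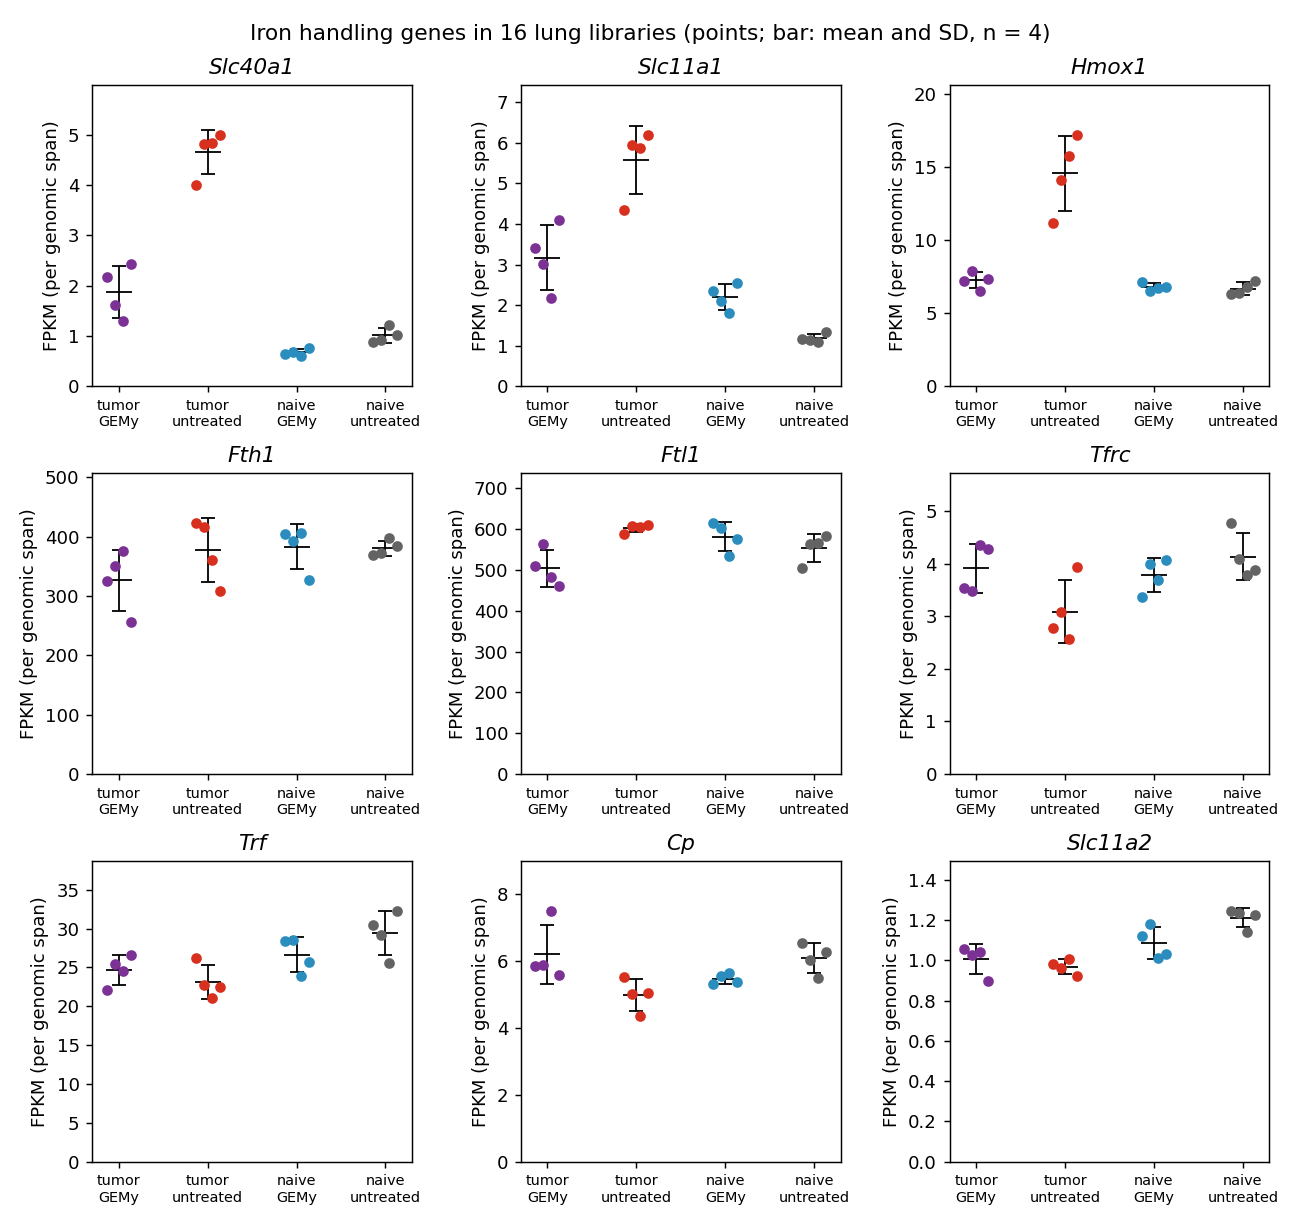
FPKM of each of the 9 iron genes by lung group, 1 point per library (n = 4) with the group mean and SD; each panel has its own scale. Slc40a1, Slc11a1 and Hmox1 stand highest in tumor_untreated, with means of 4.66, 5.59 and 14.5 FPKM. In the other panels the group means differ less, though some pairs of groups do not overlap, such as tumor_untreated and naive_untreated for Slc11a2.

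The first comparison asked what a distant tumor alone does to these genes in the lung. In tumor_untreated lungs Slc40a1, Slc11a1 and Hmox1 rose 2.18- to 4.70-fold over naive_untreated lungs, Tfrc, Trf, Slc11a2 and Cp fell to 0.747 to 0.820 of them, and neither ferritin gene passed the test. So 3 of 9 members rose and 4 fell, against 16.9% and 27.2% of all 10284 genes tested, or 44.0% called in either direction (limma on log2(FPKM + 0.5), Benjamini-Hochberg adjusted p at most 0.05). The groups did not overlap for 5 members, against 38.2% of all genes. The median log2 fold change was -0.02 over the members and -0.05 over all genes.

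Slc40a1 encodes ferroportin, the iron exporter of macrophages and other cells, and lies on the minus strand of chromosome 1 at 45908070 to 45925594. It had 4.00, 4.81, 4.83 and 4.99 FPKM in tumor_untreated lungs, against 0.884, 0.914, 1.21 and 1.02 FPKM in naive_untreated lungs. Every tumor_untreated library lay above every naive_untreated library, and these values rest on 433 to 2839 reads each. Its mean was 4.66 ± 0.445 FPKM in tumor_untreated and 1.01 ± 0.149 in naive_untreated (SD, n = 4 each), a log2 fold change of 1.77 with an SE of 0.12 and an adjusted p of 5.34e-08 by limma.

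Slc11a1 encodes NRAMP1, a metal transporter of phagosomes in macrophages and neutrophils, of which C57BL/6 mice are known to carry a form with impaired function. It lies on the plus strand of chromosome 1 at 74375203 to 74386051. Libraries of tumor_untreated had 4.34, 5.94, 5.88 and 6.19 FPKM, against 1.17, 1.15, 1.10 and 1.33 FPKM in naive_untreated. The groups were far apart, with the tumor_untreated libraries all above 3 times the naive_untreated mean. Means were 5.59 ± 0.841 FPKM in tumor_untreated and 1.19 ± 0.102 in naive_untreated (SD, n = 4 each), and the log2 fold change was 1.84 (SE 0.14, limma adjusted p = 1.18e-07).

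Hmox1 encodes the inducible enzyme that opens heme and frees its iron, and lies on the plus strand of chromosome 8 at 75093618 to 75100593. It had 11.2, 14.1, 15.7 and 17.2 FPKM in tumor_untreated lungs, against 6.31, 6.37, 6.80 and 7.21 FPKM in naive_untreated lungs. No library of the one group reached the other, and the tumor_untreated libraries varied more among themselves. The means of 14.5 ± 2.58 FPKM in tumor_untreated and 6.67 ± 0.421 in naive_untreated (SD, n = 4 each) gave a log2 fold change of 1.05 (SE 0.10, limma adjusted p = 9.74e-07). With the hemoglobin level of each library in the fit the log2 fold changes were 1.75 for Slc40a1, 1.76 for Slc11a1 and 1.02 for Hmox1, and all 3 stayed past the threshold.

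The 3 genes are messages of myeloid cells among others, and markers of such cells moved in the same comparison. Of 13 tested monocyte and macrophage markers 12 rose, with a summed level of 6222 to 7192 RPM in tumor_untreated and 6056 to 6673 RPM in naive_untreated. Of 14 neutrophil markers 13 rose, at 3217 to 5420 RPM in tumor_untreated and 218 to 322 RPM in naive_untreated. Of 12 alveolar macrophage markers 1 rose and 1 fell, at 981 to 1323 RPM in tumor_untreated and 930 to 1080 RPM in naive_untreated. The median log2 fold change was 0.96 over the monocyte and macrophage, 2.84 over the neutrophil and -0.04 over the alveolar macrophage markers, beside -0.05 over all genes. No marker of these lists was at 0 in all libraries of any lung group. In bulk lung, more cells of a type and more RNA per cell cannot be told apart, and the part of these cells in the rise of the 3 genes was not tested.

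On the uptake side, Tfrc encodes the transferrin receptor, which is densest on dividing cells and red cell precursors, and lies on the plus strand of chromosome 16 at 32608896 to 32632794. It had 2.78, 3.08, 2.56 and 3.93 FPKM in tumor_untreated lungs, against 4.77, 4.09, 3.79 and 3.88 FPKM in naive_untreated lungs. The groups met in 1 library, tumor_untreated replicate 4, which was also the library with 5.41% hemoglobin reads. The mean fell to 3.09 ± 0.601 FPKM in tumor_untreated, against 4.13 ± 0.446 in naive_untreated (SD, n = 4 each), with a log2 fold change of -0.38 (SE 0.11, limma adjusted p = 0.0101). Proliferation markers moved the other way, with 11 of 11 higher in tumor_untreated, at 175 to 321 RPM against 129 to 149 RPM in naive_untreated. Of 8 tested erythroid markers 2 rose and 1 fell, and their part in the Tfrc level was not tested.

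Trf, on the minus strand of chromosome 9 at 103208876 to 103230286, encodes the iron carrier of plasma. It was 21.0 to 26.2 FPKM in tumor_untreated lungs and 25.6 to 32.3 FPKM in naive_untreated lungs, so that the groups overlapped at the edge. Its log2 fold change was -0.34 (SE 0.09, limma adjusted p = 0.00617). The liver makes most circulating transferrin. Of 9 hepatocyte markers 7 were listed, summing to at most 3.36 RPM in any lung, and 0 were high enough to be tested. The part of liver cells in the Trf level was not tested.

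Slc11a2, on the minus strand of chromosome 15 at 100387900 to 100423055, encodes DMT1, which moves ferrous iron out of endosomes. It was 0.923 to 1.01 FPKM in tumor_untreated and 1.14 to 1.25 FPKM in naive_untreated, without overlap (log2 fold change -0.22, SE 0.05, limma adjusted p = 0.00179). Cp, on the plus strand of chromosome 3 at 19957054 to 20009750, encodes the ferroxidase ceruloplasmin. It was 4.36 to 5.50 FPKM in tumor_untreated and 5.48 to 6.54 FPKM in naive_untreated, meeting at the edge (log2 fold change -0.26, SE 0.08, limma adjusted p = 0.0185). Cp lost its call under median-of-ratios scaling (adjusted p = 0.103), with hemoglobin in the fit (0.0663), without tumor_untreated replicate 3 (0.0647) and without naive_untreated replicate 1 (0.0579).

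Markers of resident lung cells also fell in this comparison. Alveolar type 2 markers fell in 6 of 8, airway secretory markers in 7 of 7 and endothelial markers in 4 of 7, with alveolar type 2 markers at 18502 to 23491 RPM in tumor_untreated and 27348 to 30054 RPM in naive_untreated. The median log2 fold change was -0.37 over the alveolar type 2, -0.57 over the airway secretory and -0.23 over the endothelial markers. The part of these cells in the 4 falls was not tested. Median-of-ratios scaling turned the balance of all calls in this comparison, with 2416 higher and 1751 lower in place of 1733 higher and 2797 lower, while Tfrc, Trf and Slc11a2 stayed past the threshold and lower.

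Ferritin messages gave no call. Fth1, on the plus strand of chromosome 19 at 9980600 to 9985111, had 308 to 423 FPKM in tumor_untreated and 369 to 397 FPKM in naive_untreated. The 95% interval of its log2 difference ran from -0.28 to 0.23 (limma adjusted p = 0.884). Ftl1, on the minus strand of chromosome 7 at 45457944 to 45459886, had 587, 607, 606 and 610 FPKM in tumor_untreated, against 504, 565, 567 and 582 FPKM in naive_untreated. Every tumor_untreated library was the higher, but by so little that the interval of the log2 difference, -0.04 to 0.28, held 0 (limma adjusted p = 0.201). After quantile normalization Fth1 had a log2 difference of -0.42 and was called (adjusted p = 0.0191), and that of Ftl1 was -0.16, of the opposite sign and not called. Both ferritin genes have processed copies in the mouse genome, so how reads were divided among them is uncertain.

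**Figure D2:**
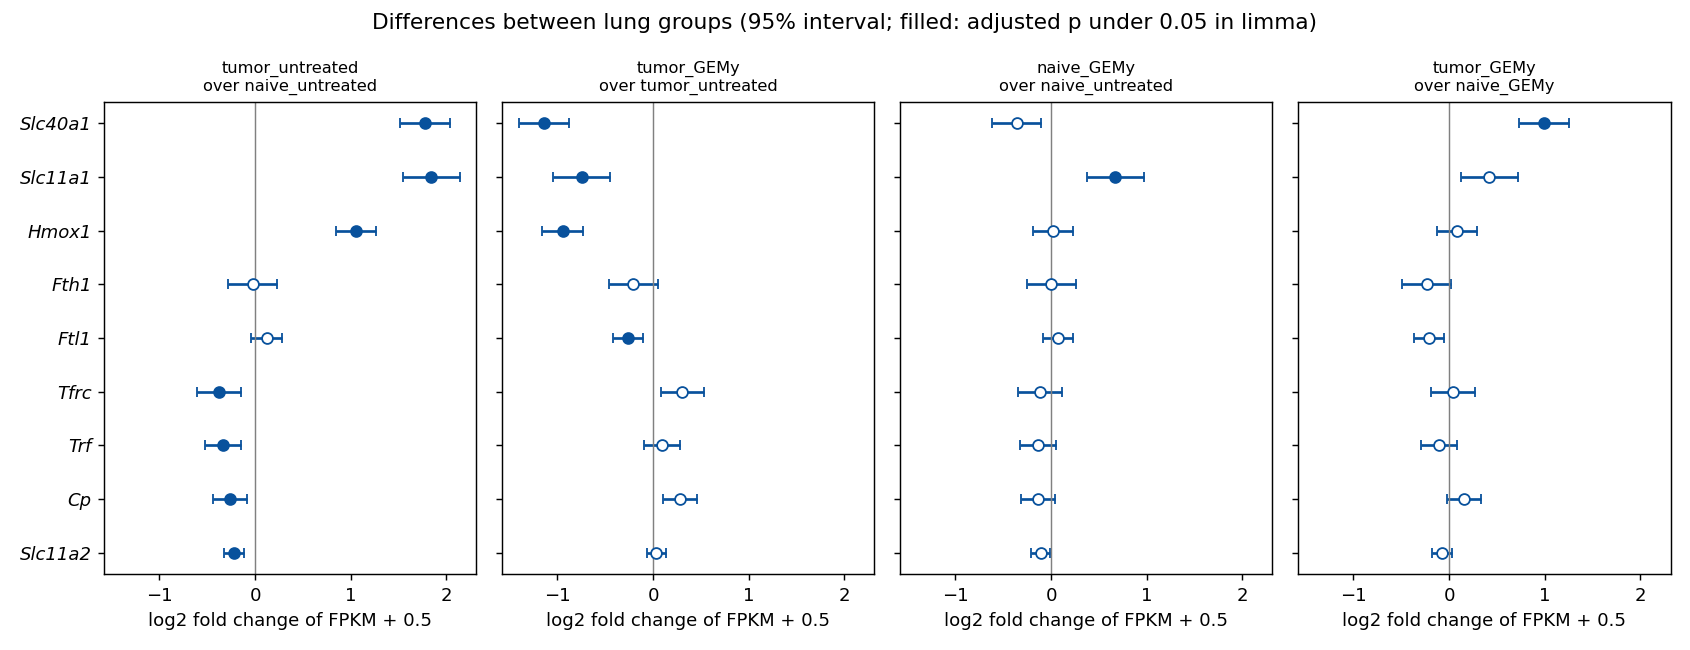
Log2 fold change of each iron gene (horizontal axis, with 95% interval) in 4 comparisons of lung groups, with filled points for an adjusted p of at most 0.05 (limma, n = 4 libraries per group). Slc40a1, Slc11a1 and Hmox1 lie right of 0 for tumor_untreated against naive_untreated and left of 0 for tumor_GEMy against tumor_untreated.

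The second comparison asked what IL12-GEMy cells do in lungs of tumor-bearing mice. In tumor_GEMy lungs 4 of 9 members fell below tumor_untreated lungs and 0 rose, against 3.72% and 3.00% of all genes, or 6.73% in either direction. The 4 were Slc40a1, Slc11a1, Hmox1 and Ftl1. The groups did not overlap for 5 members, against 9.50% of all genes, the fifth being Cp. Only the compared groups in the fit left 2 of the calls, Slc40a1 and Hmox1. The median log2 fold change was -0.21 over the members and -0.01 over all genes.

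Slc40a1 had 2.17, 1.61, 1.30 and 2.42 FPKM in tumor_GEMy lungs, against the 4.00 to 4.99 FPKM of tumor_untreated lungs. Its mean of 1.88 ± 0.514 FPKM in tumor_GEMy (SD, n = 4) was 0.403 of that in tumor_untreated, a log2 fold change of -1.14 (SE 0.12, limma adjusted p = 5.57e-05). Hmox1 had 7.17, 7.88, 6.53 and 7.35 FPKM in tumor_GEMy, against 11.2 to 17.2 FPKM in tumor_untreated. Its mean of 7.23 ± 0.556 FPKM in tumor_GEMy was 0.497 of that in tumor_untreated (SD, n = 4), with a log2 fold change of -0.95 (SE 0.10, limma adjusted p = 4.88e-05). Both genes were separated from tumor_untreated in every library.

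Slc11a1 had 3.40, 3.01, 2.17 and 4.10 FPKM in tumor_GEMy, against 4.34 to 6.19 FPKM in tumor_untreated. The highest tumor_GEMy library stood close under the lowest tumor_untreated library. Its log2 fold change was -0.75 (SE 0.14, limma adjusted p = 0.00383), and the adjusted p was 0.0539 with only the compared groups in the fit. Libraries of tumor_GEMy that were low in Slc11a1 were low in Slc40a1 too, replicate 3 lowest and replicate 4 highest in both. Hmox1 was also lowest in replicate 3, but highest in replicate 2.

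Ftl1 had 511, 564, 482 and 460 FPKM in tumor_GEMy, all below the 587 to 610 FPKM of tumor_untreated. This was the smallest of the called differences, at a log2 fold change of -0.26 (SE 0.08, limma adjusted p = 0.0479). The call was lost under 8 of the 11 alternatives that kept all libraries, with adjusted p of 0.0506 to 0.291, and on leaving out any library other than tumor_GEMy replicate 2, tumor_untreated replicate 1, naive_GEMy replicate 3 or naive_untreated replicate 1, with 0.0545 to 0.116 in those 12 fits. Fth1 had 325, 350, 376 and 256 FPKM in tumor_GEMy, which overlapped the 308 to 423 FPKM of tumor_untreated (log2 fold change -0.21, 95% interval -0.46 to 0.05, limma adjusted p = 0.377).

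Cp was 5.56 to 7.48 FPKM in tumor_GEMy, above the 4.36 to 5.50 FPKM of tumor_untreated in every library, but its log2 fold change of 0.28 missed the threshold (SE 0.08, limma adjusted p = 0.0555). It passed after quantile normalization (0.0431), without tumor_GEMy replicate 4 (0.0359) and without tumor_untreated replicate 1 (0.0271). Tfrc was 3.48 to 4.36 FPKM in tumor_GEMy and 2.56 to 3.93 FPKM in tumor_untreated, with a log2 fold change of 0.31 (limma adjusted p = 0.110). Without tumor_untreated replicate 4, the library with the most hemoglobin, Tfrc had a log2 fold change of 0.41 and passed (adjusted p = 0.0150). Trf and Slc11a2 had log2 fold changes of 0.09 and 0.03, with 95% intervals of -0.09 to 0.28 and -0.07 to 0.14.

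Of the marker lists, 3 of 13 monocyte and macrophage markers were higher and 1 lower in tumor_GEMy than in tumor_untreated, at 6529 to 7036 RPM in tumor_GEMy and 6222 to 7192 RPM in tumor_untreated. Neutrophil markers were lower in 4 of 14 and higher in 0, at 1609 to 5095 RPM in tumor_GEMy and 3217 to 5420 RPM in tumor_untreated. Of 12 alveolar macrophage markers 1 was higher and 0 lower. The median log2 fold change was 0.04 over the monocyte and macrophage, -0.62 over the neutrophil and 0.11 over the alveolar macrophage markers, beside -0.01 over all genes. Proliferation markers were higher in 7 of 11, at 336 to 369 RPM in tumor_GEMy and 175 to 321 RPM in tumor_untreated. The part of these cells in the lower Slc40a1, Slc11a1 and Hmox1 was not tested. With hemoglobin in the fit the log2 fold changes were -1.13 for Slc40a1, -0.71 for Slc11a1 and -0.93 for Hmox1, all past the threshold.

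**Figure D3:**
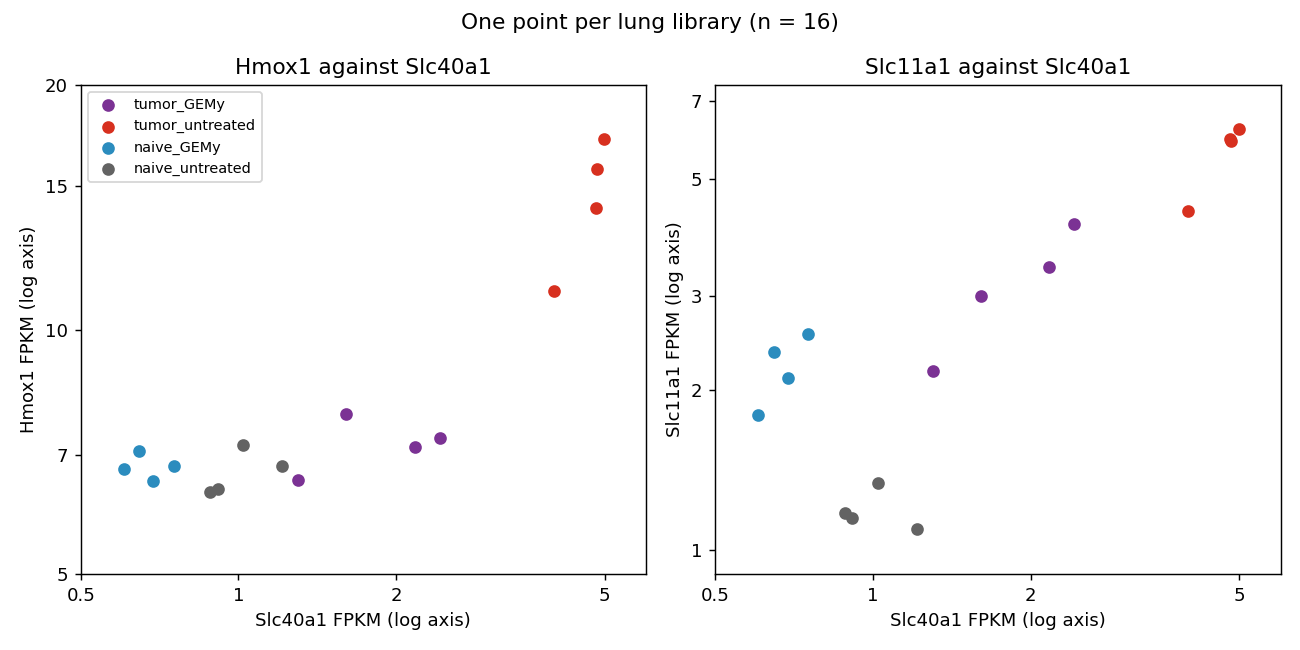
Hmox1 (left) and Slc11a1 (right) against Slc40a1, in FPKM on log axes, 1 point per lung library (n = 16). The tumor_untreated libraries stand apart at 4.00 to 4.99 FPKM of Slc40a1, while naive_GEMy libraries have more Slc11a1 than naive_untreated libraries at less Slc40a1.

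Without a tumor the cells were followed by another pattern. In naive_GEMy lungs 1 of 9 members, Slc11a1, rose above naive_untreated lungs and 0 fell, against 5.60% and 1.50% of all genes, or 7.10% in either direction. The groups did not overlap for 2 members, Slc11a1 and Slc40a1, against 18.2% of all genes. Slc11a1 had 2.36, 2.11, 1.80 and 2.54 FPKM in naive_GEMy, against 1.10 to 1.33 FPKM in naive_untreated. All 4 treated libraries were higher, and the log2 fold change was 0.67 (SE 0.14, limma adjusted p = 0.00601). Here 9 of 13 monocyte and macrophage markers rose, at 6962 to 7539 RPM in naive_GEMy and 6056 to 6673 RPM in naive_untreated, and 0 of 14 neutrophil and 0 of 12 alveolar macrophage markers passed in either direction. The median log2 fold change was 0.72 over the monocyte and macrophage, -0.06 over the neutrophil and 0.09 over the alveolar macrophage markers, beside -0.02 over all genes. The part of these cells in the Slc11a1 rise was not tested.

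Slc40a1 went the opposite way in naive_GEMy lungs but missed the threshold. It had 0.646, 0.688, 0.604 and 0.752 FPKM in naive_GEMy, against 0.884 to 1.21 FPKM in naive_untreated, with no overlap. These are the lowest Slc40a1 libraries among the lungs, at 301 to 411 reads each. The log2 fold change was -0.36 (SE 0.12, limma adjusted p = 0.0943). The same test on log2(RPM + 0.5) gave -0.56 and passed (adjusted p = 0.0348). It also passed at a pseudocount of 0.1 (-0.51, adjusted p = 0.0487), with only the compared groups (0.00653), without tumor_GEMy replicate 3 (0.0376) and without tumor_GEMy replicate 4 (0.0498). Under the other 22 of 27 alternatives Slc40a1 stayed uncalled here, and why the fits differ was not tested.

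Hmox1 had 6.51 to 7.08 FPKM in naive_GEMy and 6.31 to 7.21 FPKM in naive_untreated, a log2 difference of 0.02 with a 95% interval of -0.19 to 0.23. Neither ferritin gene passed, at log2 differences of 0.00 for Fth1 (95% interval -0.25 to 0.26) and 0.07 for Ftl1 (-0.09 to 0.23). Tfrc, Trf, Slc11a2 and Cp had log2 fold changes of -0.11 to -0.14, none past the threshold.

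The difference between the 2 treatment effects was tested as an interaction of tumor and cells, which has all 4 groups in it. For 3 members the change with IL12-GEMy cells was lower in tumor-bearing than in tumor-free lungs, and for 1 it was higher, against 5.22% and 1.04% of all genes, or 6.26% in either direction. The log2 interaction was -1.42 for Slc11a1 (SE 0.20, limma adjusted p = 0.00164), whose 2 effects had opposite signs. It was -0.97 for Hmox1 (SE 0.14, adjusted p = 0.00186) and -0.78 for Slc40a1 (SE 0.17, adjusted p = 0.0132). Monocyte and macrophage markers had 8 of 13 lower by the same test, with a median of -0.83, and neutrophil markers 3 of 14, with a median of -0.56. The median over all genes was -0.01, and the part of these cells in the interaction was not tested. The Slc40a1 interaction lost its call with voom on recovered reads (adjusted p = 0.0724).

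Cp had an interaction of 0.42 (SE 0.12, limma adjusted p = 0.0469). Its level fell short of the threshold in each treatment effect taken alone. Airway secretory markers had 2 of 7 higher in the interaction and 0 lower, and the part of these cells in the Cp value was not tested. The interaction missed the threshold without a minimum level (adjusted p = 0.0738), with median-of-ratios scaling (0.0634), on the RPM scale (0.0507), with voom (0.0539) and with hemoglobin in the fit (0.0529). It also missed on leaving out any library other than tumor_GEMy replicate 4, tumor_untreated replicate 1 or naive_untreated replicate 3 (0.0510 to 0.107). The other 5 members did not pass, with Ftl1 at -0.33 (95% interval -0.56 to -0.11, adjusted p = 0.0803) and Tfrc at 0.42 (0.10 to 0.74, adjusted p = 0.124).

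Treated tumor-bearing lungs were then set against each tumor-free group. Against naive_GEMy, 1 of 9 members differed, Slc40a1, which was 2.79-fold higher in tumor_GEMy with a log2 fold change of 0.99 (SE 0.12, limma adjusted p = 0.000130), where 4.03% of all genes were higher, 9.17% lower and 13.2% called in either direction. The groups did not overlap for Slc40a1 alone among the members, against 21.0% of all genes. Slc11a1 had a log2 fold change of 0.42 (adjusted p = 0.0570), and passed without tumor_GEMy replicate 3 (0.00920), tumor_untreated replicate 1 (0.0344), tumor_untreated replicate 4 (0.0492) or naive_GEMy replicate 4 (0.0494). Neutrophil markers were higher in 13 of 14 in this comparison, and monocyte and macrophage markers in 5 of 13.

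Against naive_untreated, 2 members were higher and 2 lower in tumor_GEMy, where 13.6% of all genes were higher, 25.6% lower and 39.3% called in either direction. The groups did not overlap for 3 members, Slc40a1, Slc11a1 and Slc11a2, against 40.0% of all genes. Slc40a1 had a log2 fold change of 0.63 (SE 0.12, limma adjusted p = 0.000867) and Slc11a1 of 1.09 (SE 0.14, adjusted p = 2.26e-05). Hmox1 did not pass, at 0.11 with a 95% interval of -0.10 to 0.32. Trf (-0.25, adjusted p = 0.0375) and Slc11a2 (-0.19, adjusted p = 0.00632) were lower. Both lost the call under median-of-ratios scaling (adjusted p = 0.253 and 0.101), and Trf also with hemoglobin in the fit (0.0625) and on leaving out replicate 1, 2 or 3 of tumor_GEMy or replicate 1, 2 or 4 of naive_untreated (0.0536 to 0.114). In this comparison neutrophil markers were higher in 13 of 14 and monocyte and macrophage markers in 10 of 13. Lower were 3 of 8 alveolar type 2, 3 of 7 airway secretory and 4 of 7 endothelial markers. The part of these cells in the member changes was not tested. These comparisons share groups with the earlier ones and are not separate evidence.

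The proteins that regulate, deliver and reduce iron were followed in a list of 46 other iron genes, of which 43 were listed and 32 high enough to be tested. In tumor_untreated lungs 8 of the 32 were higher and 10 lower than in naive_untreated lungs, against 16.9% and 27.2% of all genes, with a median log2 fold change of 0.01 beside -0.05 over all genes. Steap4, a ferric and cupric reductase, had the largest rise, at 5.04 ± 0.963 FPKM in tumor_untreated and 0.870 ± 0.0928 FPKM in naive_untreated (SD, n = 4 each; log2 fold change 2.00, SE 0.16, limma adjusted p = 2.53e-07). Lcn2, which encodes a protein that binds iron-loaded siderophores, had 69.5 ± 18.4 FPKM in tumor_untreated and 31.5 ± 4.09 FPKM in naive_untreated (log2 fold change 1.10, adjusted p = 0.00200). Slc25a37, the mitochondrial iron importer mitoferrin 1, rose by a log2 fold change of 0.73 (adjusted p = 0.00800).

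Among the genes that fell in tumor_untreated was Hamp, which encodes hepcidin, the hormone that removes ferroportin from the cell surface. Hamp had 1.66 ± 0.128 FPKM in tumor_untreated and 2.65 ± 0.233 FPKM in naive_untreated (SD, n = 4 each; log2 fold change -0.54, SE 0.14, limma adjusted p = 0.00548). The ferric reductase gene Cybrd1 fell with a log2 fold change of -0.47 (adjusted p = 0.000219), and Slc46a1, a folate and heme carrier, with -0.44 (adjusted p = 0.000630).

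In tumor_GEMy lungs 3 of the 32 were lower than in tumor_untreated lungs and 0 higher, against 3.72% and 3.00% of all genes. Steap4 had 2.68 ± 0.833 FPKM in tumor_GEMy and 5.04 ± 0.963 FPKM in tumor_untreated (SD, n = 4 each; log2 fold change -0.82, limma adjusted p = 0.00507). Fbxl5, part of the ubiquitin ligase that removes iron regulatory protein 2 when iron is plentiful, had a log2 fold change of -0.29 (adjusted p = 0.0130). Nfe2l2, which encodes NRF2, an activator of Hmox1, had -0.26 (adjusted p = 0.0402). With only the compared groups in the fit 0 of the 3 passed (adjusted p = 0.0765 for Steap4, 0.0795 for Fbxl5 and 0.166 for Nfe2l2). Fbxl5 also missed without tumor_GEMy replicate 2 (0.0557). Nfe2l2 also lost its call in 5 other fits with every library, among them hemoglobin (0.0677) and quantile normalization (0.0953). It lost it too without replicate 1, 2 or 3 of tumor_GEMy, replicate 2, 3 or 4 of tumor_untreated, naive_GEMy replicate 4 or replicate 2 or 3 of naive_untreated (0.0509 to 0.120). Fbxl5 was also called higher in tumor_untreated than in naive_untreated (log2 fold change 0.58, limma adjusted p = 7.96e-06). Its means were 2.97 FPKM in tumor_GEMy, 3.75 FPKM in tumor_untreated and 2.34 FPKM in naive_untreated.

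In tumor-free lungs 1 of the 32 was called, Bach1, a repressor of Hmox1, which was higher in naive_GEMy than in naive_untreated (log2 fold change 0.34, limma adjusted p = 0.0323), against 5.60% of all genes higher and 1.50% lower. Bach1 missed without a minimum level (0.0521), with hemoglobin in the fit (0.0562), and without replicate 2, 3 or 4 of naive_GEMy or replicate 1, 2 or 4 of naive_untreated (0.0506 to 0.121). In the interaction 1 passed in each direction, Hjv, the hepcidin-inducing co-receptor hemojuvelin (0.46, adjusted p = 0.0295), and Bach1 (-0.48, adjusted p = 0.0414), against 1.04% of all genes higher and 5.22% lower. Group means of Hjv were 0.428 to 0.658 FPKM, near the minimum of 0.5 FPKM and the added 0.5. Hjv lost its call without a minimum level (0.0536), with voom (0.0588) and in 10 of 16 fits that left out a library, the highest without naive_untreated replicate 1 (0.0728). Bach1 lost it without a minimum level (0.0696), after quantile normalization (0.0692), with hemoglobin (0.0501) and in 11 of 16 fits that left out a library, the highest without naive_GEMy replicate 4 (0.0950).

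In tumor_GEMy against naive_GEMy 3 were higher, with Steap4 at a log2 fold change of 1.22, Lcn2 at 0.98 and Fbxl5 at 0.35, against 4.03% of all genes higher and 9.17% lower. In the same comparison 4 were lower, among them Hamp at -0.68, Slc22a17, a receptor for Lcn2, at -0.36 and the lysosomal heme transporter Slc48a1 at -0.23. Slc48a1 missed after median-of-ratios scaling (0.118), with only the compared groups (0.0558), and without tumor_GEMy replicate 1 (0.0588), naive_GEMy replicate 1 (0.0733) or naive_GEMy replicate 2 (0.0587). With hemoglobin in that fit 1 of the 7, Steap4, was still called, and calls over all genes then numbered 154 in place of 1357. In tumor_GEMy against naive_untreated 5 were higher and 7 lower, against 13.6% and 25.6% of all genes, led by Steap4 (1.18), Lcn2 (1.14) and Bach1 (0.48) and by Hamp (-0.81), Slc22a17 (-0.40) and Slc46a1 (-0.36).

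Hmox1 is a known target of NRF2, and 10 of 11 other NRF2 targets could be tested. In tumor_untreated against naive_untreated 2 rose, Gsr (log2 fold change 1.24) and G6pdx (0.89), and 3 fell, Gclc (-0.34), Nqo1 (-0.22) and Srxn1 (-0.20), against 16.9% and 27.2% of all genes. In tumor_GEMy against tumor_untreated 1 of 10 fell, Gsr (-0.52), and 0 rose, against 3.72% and 3.00% of all genes, and in naive_GEMy against naive_untreated 0 passed in either direction. Of these targets Gsr was the 1 called higher in the first comparison and lower in the second, as Hmox1 was. The repressor gene Bach1 (log2 fold change 0.61, limma adjusted p = 0.000110) and the activator gene Nfe2l2 (0.42, 0.000343) were both higher in tumor_untreated than in naive_untreated. Their part in the Hmox1 level was not tested.

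**Figure D4:**
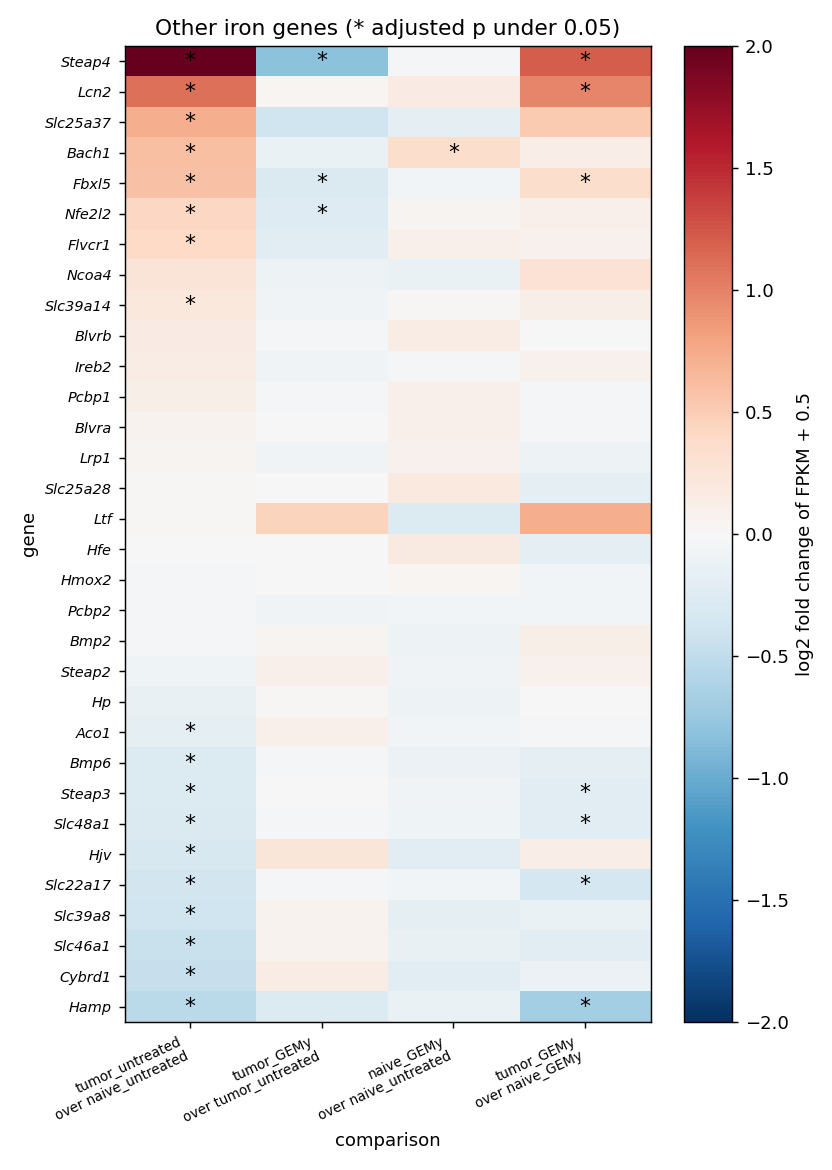
Heat map of log2 fold changes (colour scale) of the 32 tested genes in the list of other iron genes (rows) in 4 comparisons of lung groups (columns, n = 4 libraries per group), with a star for an adjusted p of at most 0.05 in limma. Steap4 has the strongest colours, with 2.00 in tumor_untreated over naive_untreated and -0.82 in tumor_GEMy over tumor_untreated, and most other genes are pale in the middle columns.

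The injected IL12-GEMy cells were measured in 1 library, so their values have no replicate check and no test. Tfrc was the member that stood most above lung, at 21.1 FPKM in the product (95% Poisson interval of the reads 20.8 to 21.4, counting error only) and a mean of 3.73 FPKM over the lungs, a ratio of 5.66. Proliferation markers summed to 4524 RPM in the product and at most 369 RPM in any lung. Ftl1 had 944 FPKM in the product and 561 FPKM in lungs, a ratio of 1.68, and Fth1 425 and 367 FPKM, a ratio of 1.16. Hmox1, at 11.2 FPKM in the product, was above every lung group mean except tumor_untreated.

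The genes of the plasma proteins were low in the product. Trf had 1.40 FPKM in the product and 26.0 FPKM on average in lungs, which was 18.5-fold higher in lungs, and Cp 0.177 and 5.67 FPKM, 32.0-fold higher in lungs. Slc40a1 had 0.517 FPKM in the product (95% interval 0.459 to 0.581), below every lung library, and the tumor_untreated mean was 9.01-fold higher. Slc11a1 had 1.68 FPKM, above every naive_untreated library and below every library of the other 3 groups. Slc11a2 had 0.658 FPKM, under the lowest lung library of 0.897 FPKM. For shares over genes 0.5 was added to both values, unlike in the ratios above. Among 10927 genes with at least 0.5 FPKM in the product or the lung mean, 17.9% were at least 2 times higher in the product. Another 21.8% were at least 2 times higher in lungs.

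**Figure D5:**
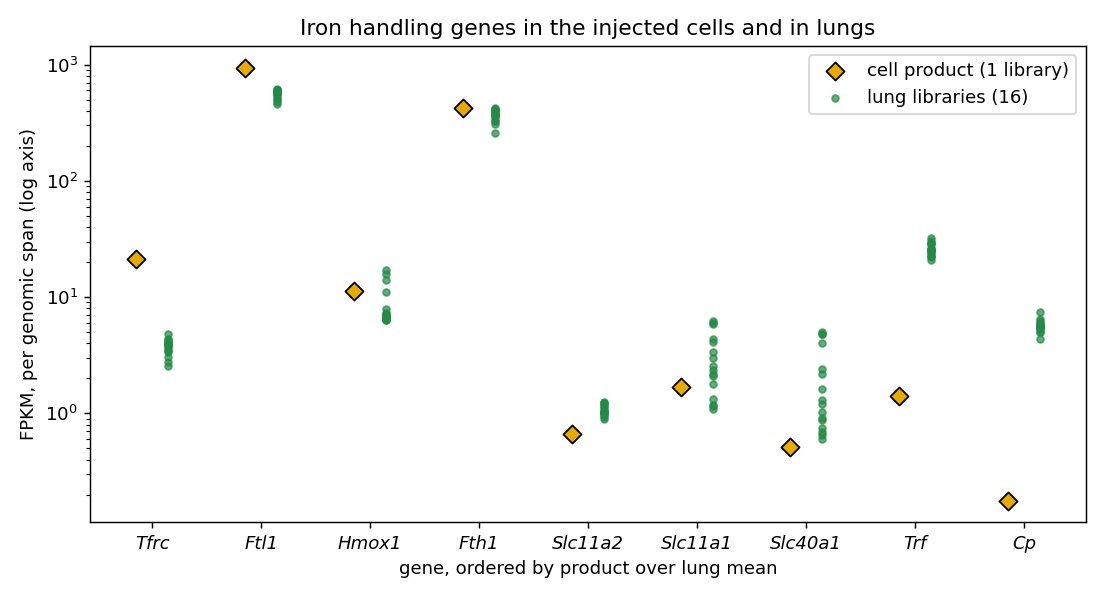
FPKM on a log axis of each iron gene in the IL12-GEMy cell product (diamond, 1 library) and in the 16 lung libraries (points), with genes ordered by the ratio of product to lung mean. Tfrc lies above all lungs in the product, at 21.1 FPKM, and Trf and Cp lie far below them, at 1.40 and 0.177 FPKM.

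Genes whose log2 level over the 16 lungs was most like that of a member were ranked by Pearson r. The libraries form groups, so r within groups, from deviations from the group means, stands beside it, with no test. Slc40a1 was most like Cd300ld, with r = 0.975 over all lungs and 0.889 within groups, then D7Ertd143e (0.970 and 0.604) and Sorl1 (0.966 and 0.721). Slc11a1 was most like Fgr (0.989 and 0.902), Lrrc25 (0.987 and 0.909) and Nfam1 (0.983 and 0.891). For Hmox1 the nearest were Ms4a4a (0.967 and 0.814), Arg1 (0.964 and 0.831) and Snx18 (0.957 and 0.648). Slc40a1 and Slc11a1 had an r of 0.824 within groups, against 0.459 for Slc40a1 and Hmox1.

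The remaining members had other neighbours. Fth1 was nearest to H2aj (0.926 over all lungs and 0.947 within groups), Pdcd6 (0.926 and 0.915) and Trir (0.904 and 0.929), so its variation lay mainly among libraries of the same group. Its lowest library was replicate 4 in tumor_GEMy, tumor_untreated and naive_GEMy. Ftl1 was nearest to Lyl1 (0.871 over all lungs and 0.673 within groups), Borcs6 (0.838 and 0.697) and Ccm2 (0.807 and 0.629). Tfrc was nearest to Lrp2 (0.879 and 0.864), Gclc (0.875 and 0.764) and Tgoln1 (0.815 and 0.71). Trf was nearest to Sdha (0.917 and 0.795), Slc4a5 (0.909 and 0.792) and Thnsl2 (0.899 and 0.756). Slc11a2 was nearest to Wdr54 (0.952 and 0.823), Tm2d3 (0.935 and 0.852) and Nkain4 (0.935 and 0.806). Cp was nearest to Chad (0.864 and 0.736), Gsto1 (0.839 and 0.675) and Prr15l (0.836 and 0.737).

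Promoter windows, from 250 bases before to 50 after the start, were on hand from RefSeq (GRCm38.p6) for 5 members, Fth1, Ftl1, Tfrc, Slc11a1 and Cp, in 8 windows. On both strands none of the 8 held TTCNNNGAA, the STAT core, the interferon-response core of GAAA, any 2 bases and GAAA, or the NRF2 core of TGAC, any 3 bases and GCA. Of 32851 windows of the same length, 8.30%, 3.44% and 3.04% held them. With shares this small, 8 windows cannot tell a lack of these motifs from the common rate. Hmox1 was not among the 5 members with a window. In the first 50 transcribed bases CAGTG was found in 0 of the 8 and in 7.20% of all windows. In the transcripts used above, the hairpin windows begin at base 87 for Fth1 and base 78 for Ftl1. Those of Tfrc lie in the 3′ UTR, and Slc40a1 had no promoter window. All lie past the first 50 bases, so this count says nothing about these elements.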

How the data were processed

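Per the labels, lungs were flash frozen, total RNA was taken with TRIzol, and libraries followed standard Illumina protocols. STAR 2.7.3a, Partek and mm10 are named in the submitters' processing notes; annotation and settings are not given in the sources used here. The authors deposited FPKM for 18262 genes in 17 libraries. Depth, recovered from the values, was 27566836 to 36815061 assigned reads in lungs and 31111336 in the product. FPKM times the listed gene span, introns included, sums to 1000000 per library, so this length is the genomic span and FPKM understates genes with long introns. The smallest step gave the read number, with 86.7 to 88.4% of those values that stand for fewer than 1000 reads being whole to within 0.02.

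Genes at 0.5 FPKM or more in 4 lung libraries, 10284 in all, were tested on log2(FPKM + 0.5). The 4 group means of the 16 lungs were estimated with limma 3.58.1 (R 4.3.3), using trend and robust moderation, 2-sided tests and Benjamini-Hochberg adjustment over all genes at 0.05. The fit was tested on simulated data. Fold changes include the added 0.5, and ratios of means do not, except in the shares of genes that differ between product and lungs. Poisson intervals of reads cover counting error only. Levels between genes used the longest principal transcript.

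The members and lists were chosen with earlier results of these data known. All 9 members were tested in each comparison, and members not named in a comparison did not pass there. Of the other iron genes, the 3 largest called changes in each direction were named, and beyond these Bach1, Nfe2l2 and Fbxl5 in tumor_untreated against naive_untreated. The 3 genes most like each member were named, leaving out predicted genes, pseudogenes and ribosomal protein genes. NRF2 targets and genes of other lists that are named were chosen after their values were seen. Alternatives were 2 pseudocounts, 2 minimums, median-of-ratios scaling, quantile normalization, RPM, voom, only the compared groups, a replicate block, a hemoglobin covariate and leaving out each library. Plots used python 3.11.15 and matplotlib 3.10.9.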

Additional observations from a re-analysis of the deposited data

Results flagged for a closer look

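In 4 of the 36 sets of 4 libraries tested (9 members in 4 lung groups), 1 library lay far from the other 3 by Dixon's criterion, where chance gives about 1 in 20. Cp in tumor_GEMy had its highest library, replicate 3, at 7.48 FPKM. Ftl1 in tumor_untreated had its lowest library, replicate 1, at 587 FPKM, and Slc11a1 in the same library stood at 4.34 FPKM, the lowest of that group. Slc11a2 in tumor_GEMy had its lowest library, replicate 4, at 0.897 FPKM.

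The effect of IL12-GEMy cells differed between tumor-bearing and tumor-free lungs for 4 members by the limma interaction. On the log2 scale the difference was -0.78 for Slc40a1 (adjusted p = 0.0132), -1.42 for Slc11a1 (0.00164), -0.97 for Hmox1 (0.00186) and 0.42 for Cp (0.0469).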

How the results depend on the processing

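Of 54 member values (9 members in 6 comparisons), 21 passed the threshold. Of these, 14 stayed past it under every alternative run for them (11 that kept every library, of which only the compared groups could not be fitted for the interaction, and 16 that left one out), 7 lost it under at least 1, and 0 changed direction; 11 others gained a call. Members called in tumor_GEMy against tumor_untreated numbered 2 with only the compared groups, in place of 4. In naive_GEMy against naive_untreated they numbered 2 at a pseudocount of 0.1, on RPM and with only the compared groups, in place of 1. In tumor_GEMy against naive_GEMy they numbered 3 after quantile normalization and 2 with the replicate block, in place of 1. In tumor_GEMy against naive_untreated they numbered 2 after median-of-ratios scaling, in place of 4, and in the interaction 2 with voom, in place of 4. Leaving out each library gave 6 to 7 in tumor_untreated against naive_untreated, 3 to 5 in tumor_GEMy against tumor_untreated, 1 to 2 in naive_GEMy against naive_untreated, 1 to 2 in tumor_GEMy against naive_GEMy, 3 to 4 in tumor_GEMy against naive_untreated and 3 to 4 in the interaction. Fth1 was called after quantile normalization, and under no other alternative: lower in tumor_untreated than in naive_untreated (-0.42, adjusted p = 0.0191), in tumor_GEMy than in naive_GEMy (-0.44, 0.0458) and in tumor_GEMy than in naive_untreated (-0.65, 0.00153). Ftl1 was called lower after quantile normalization in tumor_GEMy than in naive_GEMy (-0.44, adjusted p = 0.0151) and than in naive_untreated (-0.36, 0.0132). In tumor_GEMy against naive_GEMy it was also called lower without tumor_GEMy replicate 2 (-0.26, 0.0429). The causes were not tested.

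Over all genes, calls in tumor_GEMy against tumor_untreated numbered 692, and 210 with only the compared groups; in naive_GEMy against naive_untreated 730 and 1188. In tumor_GEMy against naive_GEMy they numbered 1357, and 154 with hemoglobin in the fit. Leaving out a library gave 452 to 913, 472 to 1006 and 641 to 1892 in these comparisons, and 383 to 1256 for the 644 of the interaction. The lowest counts came without tumor_GEMy replicate 2, naive_GEMy replicate 4, naive_GEMy replicate 1 and naive_GEMy replicate 4, and the 1256 without tumor_untreated replicate 1. Counts for tumor_GEMy against naive_GEMy also moved by over 1.5 times without replicate 1 (778) or 2 (893) of tumor_GEMy or replicate 2 (799) or 3 (859) of naive_GEMy. Those for the interaction did so without tumor_untreated replicate 3 (385), naive_GEMy replicate 1 (423), naive_untreated replicate 1 (384) or naive_untreated replicate 2 (407). Under median-of-ratios scaling higher calls were 2416 of 4167 in tumor_untreated against naive_untreated, 543 of 939 in tumor_GEMy against naive_GEMy and 1993 of 3356 in tumor_GEMy against naive_untreated, where the deposited scaling gave 1733 of 4530, 414 of 1357 and 1403 of 4038. Quantile normalization gave 487 of 777 in naive_GEMy against naive_untreated, where the deposited scaling gave 576 of 730, 527 of 1185 in tumor_GEMy against naive_GEMy, and 223 of 629 in the interaction in place of 107 of 644.

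Replicate numbers of the titles are shared by the groups, and the check did not settle whether they pair the libraries. Deviations from group means of same-numbered libraries correlated at -0.313 to 0.594, over 0.1 in 12 of 24 pairs. The median correlation was 0.123, beside -0.0538 for other numbers. In all, 7 of 16 libraries correlated best with their own number, and no chance level was worked out for this count. With the replicate block calls over all genes rose in each comparison, to 827 in place of 692 in tumor_GEMy against tumor_untreated and 799 in place of 644 in the interaction. The called members were the same as without it, except that Slc11a1 in tumor_GEMy against naive_GEMy gained a call (adjusted p = 0.0275) and Ftl1 in tumor_GEMy against tumor_untreated (0.0577) and Cp in the interaction (0.0630) lost theirs. The lowest lung library of a member, for Slc40a1 in naive_GEMy, held 301 reads, so counting noise limits the low members more than ferritin.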
